A study of Homo sapiens with 3 samples.

Results

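The genes described here encode 10 subunits of the Polycomb repressive complexes, taken by name from 27307 gene symbols measured in the series. They are EZH2, EZH1, SUZ12, EED and JARID2 of Polycomb repressive complex 2 (PRC2) and RNF2, BMI1, CBX2, CBX8 and CBX7 of Polycomb repressive complex 1 (PRC1). Where a symbol had several transcript entries, the entry with the highest mean level was kept. RNA-seq was made from 3 samples of teratoma, a benign tumour in which pluripotent cells form tissues of many lineages, all of 1 group with no comparison group. The tumours grew in SCID-beige mice, an immunodeficient strain, for 3 to 4 weeks after an injection under the skin of 1000000 H1 cells, an established human embryonic stem cell line. No transgene, agent or other allele is named in the labels. The libraries are called teratomas 1, 2 and 3 by their replicate number, and since separate tumours are not stated in the labels, their spread may be technical.

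Polycomb complexes keep developmental genes silent. PRC2 places methyl groups on lysine 27 of histone H3 through its catalytic subunit, EZH2 or EZH1, which works only together with EED and SUZ12. PRC1 places ubiquitin on histone H2A through RNF2 or its paralogue RING1, paired with a PCGF protein such as BMI1, and its canonical form carries a CBX protein whose chromodomain binds the PRC2 mark. In dividing progenitors EZH2 is the usual PRC2 enzyme and EZH1 is the enzyme better known from resting, differentiated cells. In mouse embryonic stem cells Cbx7 is the main CBX protein, and Cbx2 and Cbx8 take its place on differentiation.

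Promoters are shown for the PRC2 enzymes, whose levels differed in opposite directions between libraries, for SUZ12, the steadiest member as deposited, and for RNF2, the second most variable. The reference table, from RefSeq on build GRCh38.p14, held 11 promoter windows for 8 of the 10 members and had none for CBX2 and CBX8. Each window runs from 250 bases before to 50 bases after an annotated start, and is written 5′ to 3′ on the gene's own strand. Capitals mark TTTNNCGC, a core of E2F sites, on either strand. E2F factors drive genes of the cell cycle.
EZH2 (chr7:148884242-148884541, minus strand): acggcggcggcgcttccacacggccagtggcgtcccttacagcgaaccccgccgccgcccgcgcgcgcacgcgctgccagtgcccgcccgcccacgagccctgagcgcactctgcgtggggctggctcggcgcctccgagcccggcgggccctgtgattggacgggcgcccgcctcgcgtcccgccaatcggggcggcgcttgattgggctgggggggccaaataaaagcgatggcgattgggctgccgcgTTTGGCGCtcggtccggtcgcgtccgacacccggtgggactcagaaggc
EZH1 (chr17:42744991-42745290, minus strand): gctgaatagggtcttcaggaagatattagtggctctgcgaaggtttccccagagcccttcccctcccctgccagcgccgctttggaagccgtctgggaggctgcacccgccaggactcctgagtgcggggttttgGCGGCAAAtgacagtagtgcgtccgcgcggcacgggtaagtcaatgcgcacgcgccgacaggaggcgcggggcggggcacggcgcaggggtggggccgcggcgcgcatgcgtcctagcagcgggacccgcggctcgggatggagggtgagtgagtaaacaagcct
SUZ12 (chr17:31936757-31937056, plus strand): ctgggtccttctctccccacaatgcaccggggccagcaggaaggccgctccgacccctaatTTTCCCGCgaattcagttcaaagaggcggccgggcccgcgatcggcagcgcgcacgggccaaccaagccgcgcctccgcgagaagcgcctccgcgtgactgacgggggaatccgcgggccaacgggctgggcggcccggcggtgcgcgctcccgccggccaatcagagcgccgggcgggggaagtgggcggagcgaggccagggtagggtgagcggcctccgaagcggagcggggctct
RNF2 (chr1:185045308-185045607, plus strand): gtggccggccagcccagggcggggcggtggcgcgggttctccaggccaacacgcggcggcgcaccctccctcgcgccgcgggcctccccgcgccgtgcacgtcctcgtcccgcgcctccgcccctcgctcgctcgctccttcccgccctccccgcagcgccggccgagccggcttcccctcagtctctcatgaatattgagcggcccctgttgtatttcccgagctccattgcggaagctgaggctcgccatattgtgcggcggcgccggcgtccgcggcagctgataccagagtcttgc
The letters occurred once each in the printed windows of EZH2, EZH1 and SUZ12, as TTTGGCGC from position 2 of EZH2, and as GCGGCAAA, on the opposite strand, and TTTCCCGC from positions -115 and -189 of EZH1 and SUZ12, where position 1 is the first transcribed base. The other 8 member windows, which include the printed one of RNF2 and another start of EZH2, did not hold these letters. The share with a match was 6.89% of all 35116 windows in the table and 8.32% of the 22199 windows of protein-coding genes. Member windows held 16 to 65 CpG dinucleotides with a median of 40, against a median of 21 for protein-coding genes. A match of letters is a description of the window and does not show a bound site.

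All 10 members were measured at 1 RPKM or more in every library, with the highest mean for CBX2 and the lowest for CBX7. Levels are in RPKM, which counts reads per kilobase of a transcript for each 1000000 reads of the library, so genes of different length can be compared. Each mean ± SD is over the 3 libraries (n = 3). CBX2 led at 30 ± 11.9 RPKM, followed by EZH2 at 14.1 ± 1.72, JARID2 at 13.6 ± 1.32 and BMI1 at 11.1 ± 1.4. CBX8 (8.97 ± 1.27), RNF2 (8.9 ± 2.69) and SUZ12 (8.51 ± 0.304) formed a middle group. EZH1 stood at 5.29 ± 0.831, EED at 3.72 ± 0.216 and CBX7 at 1.52 ± 0.152. Of the 9 neighbouring pairs in this order, 4 had ranges that did not overlap: CBX2 above EZH2, SUZ12 above EZH1, EZH1 above EED and EED above CBX7. Over all 45 pairs of members, 37 had ranges that did not overlap. Among the 6 genes from EZH2 down to SUZ12 this held for 7 of 15 pairs: EZH2 and JARID2 each lay above CBX8, RNF2 and SUZ12, and BMI1 lay above SUZ12. EZH2, JARID2 and BMI1 overlapped among themselves, as did CBX8, RNF2 and SUZ12. The place of CBX2 depended on its transcript entry: with the mean over its 2 entries it stood at 18.2 ± 6.84 RPKM (25, 18.2 and 11.3 in teratomas 1, 2 and 3), its range overlapped that of EZH2, and in teratoma 3 it was 5 in order, under JARID2, BMI1, EZH2 and RNF2. Reaching 1 RPKM in all 3 libraries, as the 10 members did, was found for 52.7% of all genes. The mean level of CBX2 was above that of 88% of the 15701 genes that averaged 1 RPKM or more (called expressed genes below), and that of CBX7 above 7.01% of them.

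**Figure D1:**
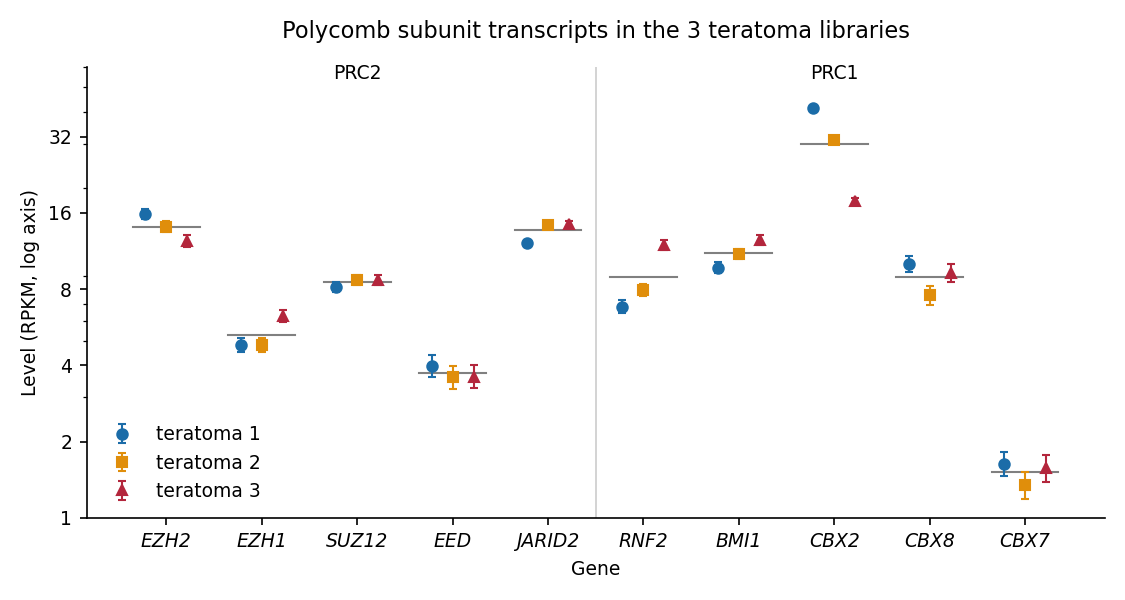
RPKM (log axis) of the 10 Polycomb members in teratomas 1, 2 and 3, with grey lines at the mean and bars for the 95% counting interval (exact Poisson, for counting error only). With the entry kept, CBX2 lies above the other members in each library and CBX7, between 1.34 and 1.63 RPKM, below them.

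The spread between libraries was read by a rule of size: a gene was called variable when log2(RPKM + 1) differed by 1 or more between its top and bottom library, which is 2-fold on that scale and understates the differences of low genes. By this rule 1 of the 10 members, CBX2, was variable, beside a background of 20.0% of expressed genes. The median range of the members was 0.33 on this log2 scale, against 0.45 for all expressed genes. RNF2 came next at 0.73, and the other 8 members lay below 0.5, a limit that 46.2% of expressed genes reached. No test was made of this count: all libraries belong to 1 group, and 1 member in 10 is not far from the background. Reads per member ran from 251 to 8176 per library, so counting error was small, and for 7 members the 95% counting intervals of the highest and lowest library lay apart. For SUZ12, EED and CBX7 they overlapped. The share of all expressed genes with intervals apart was not computed, so this count is not read as a trait of the members. Without teratoma 3 the background was 2.56% of expressed genes and no member was variable, without teratoma 1 it was 12.7% and again no member was, and without teratoma 2 it was 17.4% with CBX2 variable.

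**Figure D2:**
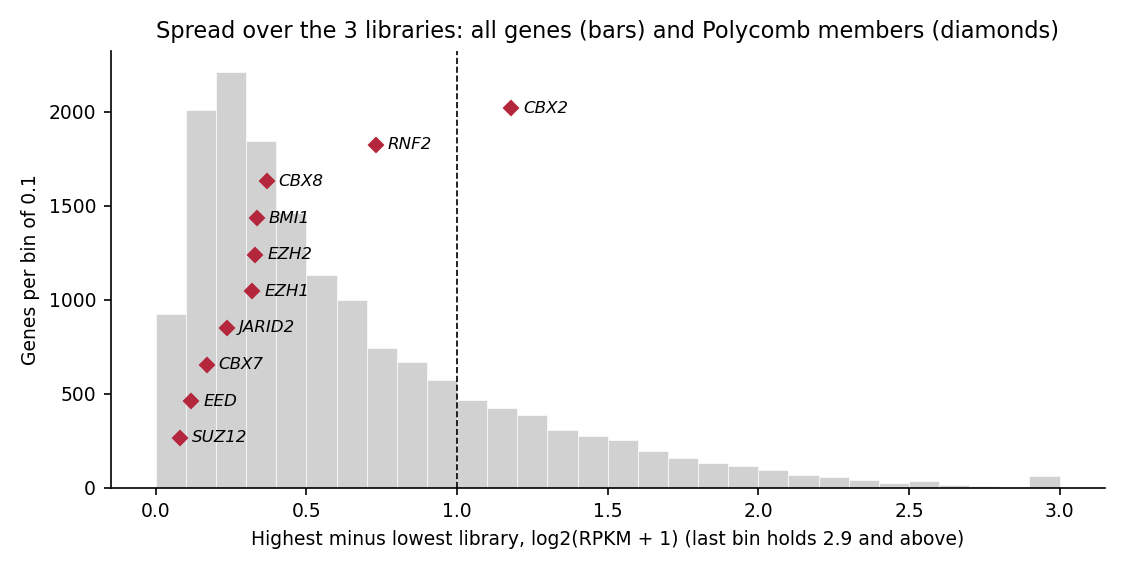
Distribution of the difference between the highest and the lowest library in log2(RPKM + 1) for the 15701 expressed genes (bars, genes per bin), with each Polycomb member as a diamond at its own value, stacked in height for legibility. The dashed line is the limit of 1, and CBX2 alone among the members lies beyond it.

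The libraries differed in the levels of marker genes of several tissues. The depth was close, from 43605458 to 46243199 reads per library. All 12 neuron markers, led by TUBB3 and STMN2, were highest in teratoma 3, with summed levels of 801, 1000 and 2643 RPKM in teratomas 1, 2 and 3. All 7 neural progenitor markers were highest there as well, with sums of 279, 292 and 438 RPKM. Of these 7, 3 were variable by the rule above, beside a background of 20.0% of expressed genes. The median marker of this list stood in teratoma 3 at 133% of its level in teratoma 1, in a range of 105% to 392%. For the neuron list the median was 392%, and all 12 markers were variable. All 12 proliferation genes, led by PCNA and TYMS, were lowest in teratoma 3, with sums of 376, 314 and 190 RPKM. All 8 fibroblast markers (sums of 1933, 1587 and 428), all 6 gut epithelium markers (185, 180 and 51.7) and all 7 liver and yolk sac markers (1076, 3869 and 340) were lowest in teratoma 3 too. The 6 markers of pluripotent cells summed to 19, 54.4 and 20.7 RPKM and were highest in teratoma 2. No marker was listed at 0 in any library. In such bulk samples fewer cells of a type and less RNA per cell cannot be told apart. The part of these marker differences in the differences of Polycomb genes was not tested, and removal of reads from the host mouse is not given in the sources used here.

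Of the PRC2 enzymes, EZH2 was the more abundant in every library. EZH2 stood at 15.8, 14.1 and 12.4 RPKM in teratomas 1, 2 and 3, from 1899, 1677 and 1401 reads. EZH1 stood at 4.8, 4.82 and 6.25 RPKM, from 1015, 1008 and 1245 reads. Teratoma 3, where the neuron markers were highest and the proliferation genes lowest, had the lowest EZH2 and the highest EZH1. A link between these was not tested. Teratomas 1 and 2 were almost equal in EZH1. EZH2 was 3.3, 2.93 and 1.98 times EZH1 in teratomas 1, 2 and 3. On the log2(RPKM + 1) scale EZH2 exceeded EZH1 by 1.27 ± 0.34, and was higher in 3 of 3 libraries (exact two-sided sign-flip permutation test, p = 0.25, adjusted p = 0.25 over 6 pairs of paralogues). A p of 0.25 is the smallest that 3 libraries allow, and it was reached by all 6 pairs, so no pair could pass a threshold of 0.05. EZH2 made up 76.7%, 74.6% and 66.5% of the summed EZH2 and EZH1 levels, which came to 20.7, 18.9 and 18.6 RPKM.

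The obligate partners of these enzymes hardly differed between libraries. SUZ12, the subunit that holds the complex together, stood at 8.16, 8.69 and 8.69 RPKM. EED, which binds methylated H3K27 and stimulates the enzyme, stood at 3.97, 3.58 and 3.61 RPKM. Their ranges on the log2(RPKM + 1) scale were 0.08 and 0.12 as deposited. Under median-of-ratios scaling the ranges of SUZ12 and EED were 0.17 and 0.09. After rescaling to a sum of 1000000 per library they were 0.19 and 0.09, so EED was the steadier under both scalings. As deposited, an SD smaller than that of SUZ12 on the log2(RPKM + 1) scale was found for 4.66% of expressed genes, and one smaller than that of EED for 8.69%. EED was the lowest of the PRC2 core transcripts in each library. The histone chaperone subunits RBBP4 and RBBP7, which also serve other complexes, were higher, at 15.4, 15.2 and 16.6 RPKM for RBBP4 and 38.7, 34.3 and 25.5 RPKM for RBBP7. RBBP7 was lowest in teratoma 3, as EZH2 was.

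JARID2, which helps bring PRC2 to its targets, was the most abundant PRC2 accessory subunit after PHF1. JARID2 stood at 12.1, 14.3 and 14.4 RPKM in teratomas 1, 2 and 3, and PHF1, a Polycomb-like protein, at 16.2, 16.8 and 20.8. MTF2, another Polycomb-like protein, stood at 8.01, 8.39 and 8.7 RPKM. All 3 of these genes were lowest in teratoma 1. PHF19 and EPOP were named after their values were seen, because they lay closest below the limit among the PRC2 genes. PHF19, also a Polycomb-like protein, stood at 8.84, 6.7 and 4.01 RPKM, a range of 0.97 on the log2 scale. EPOP, a PRC2 partner of pluripotent cells, stood at 5.97, 8.61 and 3.95 RPKM, a range of 0.96. Both were lowest in teratoma 3, and EPOP was highest in teratoma 2, where the pluripotent markers were highest as well. EZHIP, an inhibitor of PRC2 normally limited to germ cells and listed under the symbol CXorf67, rested on 1, 8 and 19 reads and stayed under 1 RPKM in each library.

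In PRC1, RNF2 was the member with the largest excess in teratoma 3. RNF2 stood at 6.8, 7.96 and 11.9 RPKM in teratomas 1, 2 and 3, from 1117, 1295 and 1848 reads. The level in teratoma 3 was 175% of that in teratoma 1, and no 2 of the 3 counting intervals overlapped. RING1, the other E3 ligase, stood at 31.2, 27.8 and 27.9 RPKM and hardly differed between teratomas 2 and 3. RNF2 was below RING1 in 3 of 3 libraries, by -1.63 ± 0.45 on the log2(RPKM + 1) scale (RNF2 minus RING1, exact p = 0.25, adjusted p = 0.25). Its share of the summed RNF2 and RING1 levels was 17.9%, 22.3% and 30% in teratomas 1, 2 and 3.

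BMI1, the PCGF protein known for its role in the renewal of neural and blood stem cells, ranked behind PCGF2 and PCGF3 among the 6 PCGF transcripts. BMI1 stood at 9.7, 11 and 12.5 RPKM, highest in teratoma 3 and lowest in teratoma 1. PCGF2, its closest paralogue, stood at 39.8, 31.5 and 36 RPKM, highest in teratoma 1. BMI1 lay below PCGF2 in 3 of 3 libraries, by -1.61 ± 0.28 (BMI1 minus PCGF2, log2(RPKM + 1), exact p = 0.25, adjusted p = 0.25). BMI1 made up 14.7% ± 1.83 of the summed level of the 6 PCGF genes and PCGF2 47.5% ± 3.81. PCGF3, of a variant PRC1, followed PCGF2 at 23.6% ± 1.16. The readthrough gene COMMD3-BMI1, which contains the BMI1 exons, was listed with 1578, 1710 and 1827 reads, against 1539, 1728 and 1869 for BMI1, so reads of these entries could not be told apart.

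CBX2 had the widest range of the 10 members. This subunit, which compacts chromatin and binds the PRC2 mark, stood at 41.5, 30.9 and 17.7 RPKM in teratomas 1, 2 and 3, from 8176, 6035 and 3301 reads. No 2 of these counting intervals overlapped. The level in teratoma 3 was 42.8% of that in teratoma 1, a difference of -1.18 on the log2(RPKM + 1) scale, and in this direction, with teratoma 3 lowest by at least 1, the background was 11.8% of expressed genes. The call rested on teratomas 1 and 3: the difference was 0.77 between teratomas 2 and 3 and 0.41 between teratomas 1 and 2. CBX8 stood at 10.1, 7.57 and 9.27 RPKM and CBX7 at 1.63, 1.34 and 1.57 RPKM, both lowest in teratoma 2. CBX8 exceeded CBX7 by an almost constant 1.98 ± 0.1 on the log2 scale. CBX2 exceeded CBX7 by 3.55 ± 0.6 and CBX8 by 1.57 ± 0.61, and all 3 of these differences had 1 sign in 3 of 3 libraries (exact p = 0.25 each, adjusted p = 0.25). With the mean over entries the excess of CBX2 over CBX8 was 0.89.

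CBX6, another CBX protein of canonical PRC1, stood at 20.6, 19 and 20.3 RPKM, a range of 0.11. In teratomas 1 and 2 it lay below CBX2, and in teratoma 3 above it. With the mean over entries CBX6 lay above CBX2 in teratoma 2 as well, at 19 against 18.2 RPKM. CBX2 and CBX8 lie on the same chromosome, 17, in the RefSeq annotation of GRCh38.p14. In teratoma 3 their levels were 42.8% and 92.2% of those in teratoma 1.

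**Figure D3:**
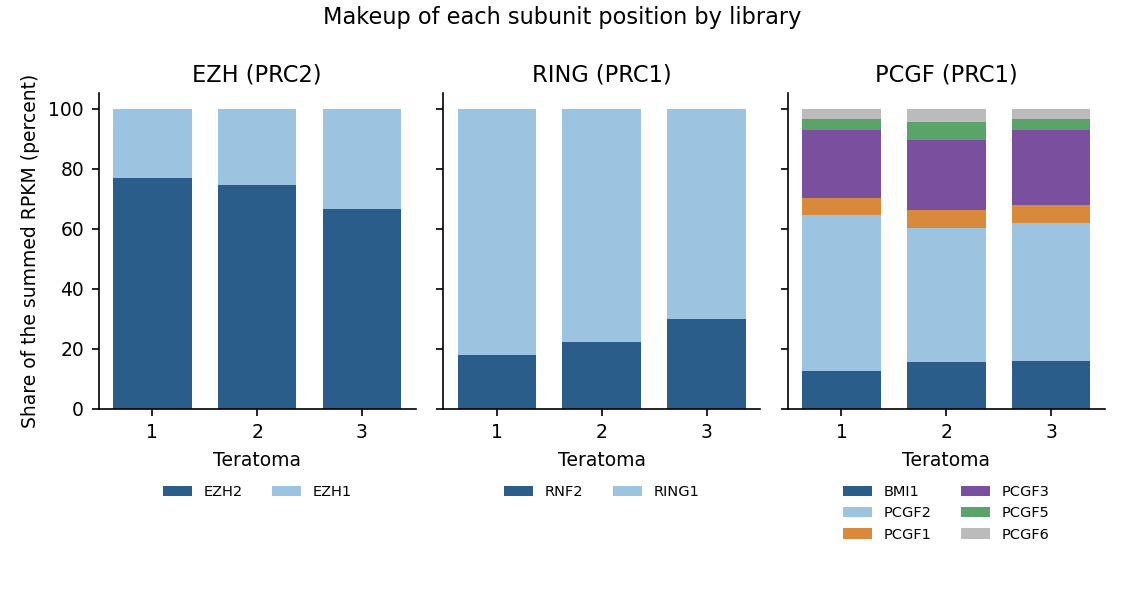
Share of each gene in the summed RPKM of its subunit position (percent) in teratomas 1, 2 and 3, for EZH2 and EZH1, for RNF2 and RING1 and for the 6 PCGF genes. The dark blue part at the base of each bar is a member, with EZH2 at 66.5% and RNF2 at 30% in teratoma 3.

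CBX2 was also the member whose transcript entries disagreed. The table lists a long CBX2 transcript of 4265 bases, used above, and a short one of 1077 bases that encodes a shorter CBX2 protein. The short entry stood at 8.51, 5.59 and 4.85 RPKM in teratomas 1, 2 and 3, and the long entry was 4.87, 5.52 and 3.66 times as high. Both entries were highest in teratoma 1 and lowest in teratoma 3, with a range on the log2(RPKM + 1) scale of 1.18 for the long and 0.7 for the short one. The entries of the other members with several agreed closely, with a ratio of the highest to the lowest of at most 1.12, found for the 5 EZH2 entries. Entries of 1 gene can share exons and reads, so they are not separate measurements. SUZ12P1, a partial copy of SUZ12 that could share its reads, was listed at 7.37, 7.74 and 10.4 RPKM. The antisense gene JARID2-AS1 had 5 to 7 reads per library, far below the reads of JARID2.

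Set beside the proliferation genes, EZH2 and CBX2 behaved unlike each other. In teratoma 3 the 12 proliferation genes stood at 41.6% to 57.9% of their level in teratoma 1, with a median of 53.7%. EZH2 stood at 78.2%, above all 12 of them, and CBX2 at 42.8%, above 2 of the 12. The other 8 members stood between 90.9% and 175%. Teratoma 3 was the highest library for 5 members, EZH1, SUZ12, JARID2, RNF2 and BMI1, and the lowest for 2, EZH2 and CBX2. Over expressed genes it was the highest for 39.9% and the lowest for 48.1%. With other scalings of the libraries CBX7 joined the genes highest in teratoma 3, and the other 9 members kept their highest and lowest library.

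**Figure D4:**
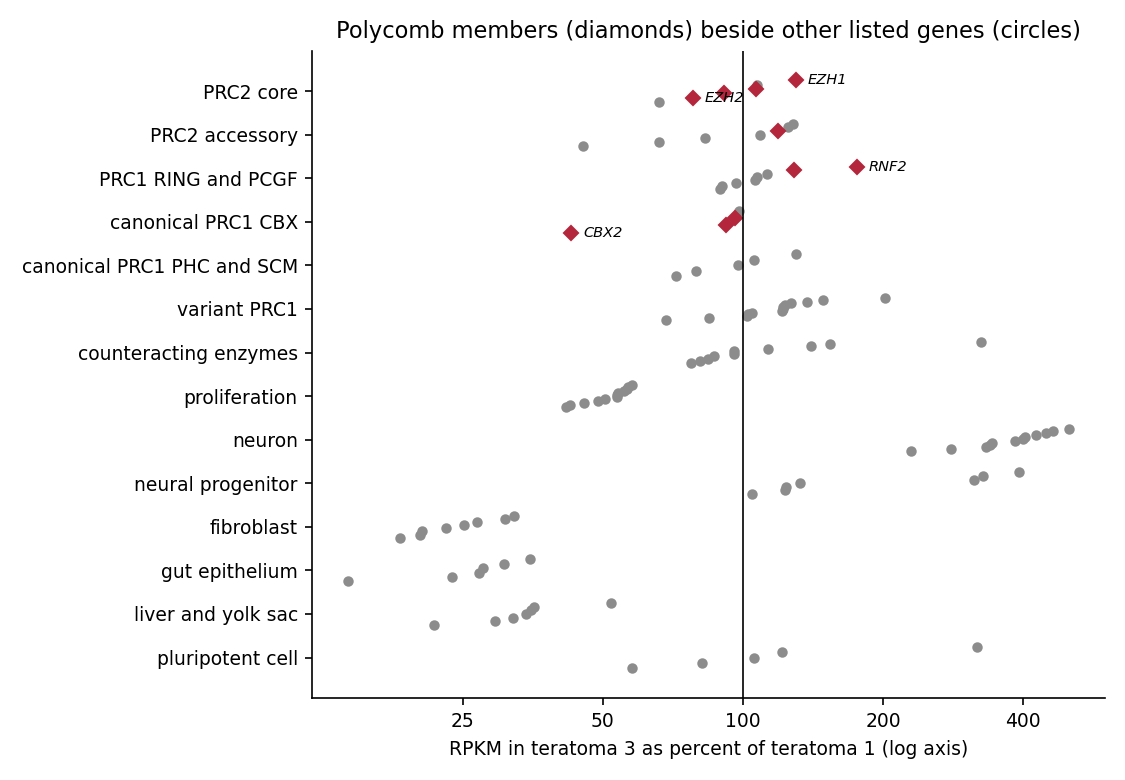
RPKM in teratoma 3 as percent of teratoma 1 (log axis) for expressed genes, 1 list per line, with Polycomb members as diamonds and other genes as circles, spread vertically for legibility. Polycomb members lie between 78.2% and 130%, apart from CBX2 at 42.8% and RNF2 at 175%, while the neuron list lies above 200% and the fibroblast list below 40%.

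The other subunits of a wider list gave a like picture. Of 34 further PRC2 and PRC1 genes, 33 reached 1 RPKM in all libraries, which held for 52.7% of all genes. Their median range was 0.28, against 0.45 for expressed genes. By the rule above 0 of the 34 were variable, beside a background of 20.0% of expressed genes. This count depended on the scaling: 1, AUTS2, was variable under median-of-ratios scaling (background 19.9%), and 2, AUTS2 and EPOP, after rescaling to a sum of 1000000 per library (background 26.6%). PHC2, a polyhomeotic protein that joins PRC1 complexes to each other, was the most abundant of all at 86, 72.2 and 68.2 RPKM, and SCMH1, of the same part of canonical PRC1, stood at 15.4, 13.8 and 16.2. In variant PRC1, which lacks CBX proteins, DCAF7, an adaptor protein, stood at 40.6, 44.6 and 60.3 RPKM. AUTS2, a subunit tied to gene activation in neurons, stood at 32.2, 41 and 65.2 RPKM, a range of 0.996 that lay just under the limit, against 1.1 and 1.12 under those scalings. EPOP, a PRC2 accessory subunit named after its values were seen, stood at 5.97, 8.61 and 3.95 RPKM, a range of 0.96 as deposited and 1.02 after rescaling to a fixed sum. Of the 13 variant PRC1 genes 11 were highest in teratoma 3, which held for 39.9% of expressed genes.

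Among 10 genes whose products act against Polycomb, all reached 1 RPKM in each library, which held for 52.7% of all genes. Of these 10, 1, ASXL3, was variable, beside a background of 20.0% of expressed genes. BAP1, which removes the PRC1 ubiquitin mark, stood at 32.1, 32.7 and 30.8 RPKM, and KDM6B, which removes methyl groups from H3K27, at 22.7, 23.4 and 25.7. ASXL3, a BAP1 partner expressed in brain, stood at 1.94, 3.08 and 6.28 RPKM, a range of 1.31, highest in teratoma 3. A range of at least 1 with teratoma 3 highest was found for 7.55% of expressed genes and for 0 of the 10 members. CDKN2A and CDKN2B, cell cycle inhibitors and classic Polycomb targets, were low. CDKN2A stood at 1.28, 0.891 and 0.179 RPKM from 68, 47 and 9 reads, and CDKN2B at 1.51, 1.73 and 0.434 RPKM from 270, 306 and 73 reads. Both were lowest in teratoma 3.

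The genes closest in pattern to the PRC2 enzymes were found by the distance between the 3 deviations of log2(RPKM + 1) from a gene's mean, over 9956 other genes that averaged 5 RPKM or more. The nearest to EZH1 were SPTBN1, PHF20 and LIMK2, at distances of 0.00093, 0.0048 and 0.0053. The nearest to EZH2 were TMEM208, RALB and ARFIP1, at 0.0017, 0.0045 and 0.0082. With 3 libraries many genes lie close: 696 genes were within 0.1 of EZH1 and 828 within 0.1 of EZH2, so a small distance does not single a gene out.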

How the data were processed

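RNA-seq of 3 teratoma libraries was used, with 1 deposited table of 59443 transcript entries per library. The RNA was polyadenylated and the kit was NEBNext Ultra II, per the labels' protocols. Bowtie2 and hg19 appear in the submitters' processing notes. How reads were counted and filtered, and whether strand was used, is not given in the sources used here. Levels are the deposited RPKM of the authors and equal the deposited counts, which are raw reads per entry, divided by length and by 1 total per library. The deposited lengths and placement numbers only describe entries.

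For each symbol the entry with the highest mean RPKM was kept. Levels were compared as log2(RPKM + 1), without rounding or further scaling. Counting intervals are 95% exact Poisson intervals and cover counting error only. At the median entry length of 2500 bases, 3 reads correspond to 0.026, 0.0262 and 0.0275 RPKM. Paralogues were compared within libraries by an exact permutation test that flips signs (two-sided), with p-values adjusted over 6 pairs by the Benjamini-Hochberg method. With 1 group no count model was fitted.

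The members and lists were chosen with earlier results of these data known. All 114 list entries were found in the tables. Named were all members, the 2 most abundant other genes and the variable genes of each Polycomb list, the paralogues compared, the 3 genes nearest in pattern to EZH1 and to EZH2 and the 2 most abundant genes of marker lists. Exceptions are stated. Planned shares among the CBX genes are not reported here. Alternatives covered the entry kept, the scaling, the pseudocount, the limits and each library left out. Python 3.11.15, numpy 2.4.6, pandas 2.3.3, scipy 1.17.1 and matplotlib 3.10.9 were used. The rule of size was also run on simulated counts with counting error only. Those counts held changes well above 2-fold and were scored for genes that averaged at least 5 RPKM. That run does not test the rule near its limit, at lower levels or with other sources of spread.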

Additional observations from a re-analysis of the deposited data

How the results depend on the processing

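None of the 6 log2 differences between paralogues changed sign in any of the 8 alternatives run for each. Each difference had the same sign in every library, so leaving out a library, rescaling or another pseudocount could not have changed it. Only the choice of entry could have done so. It could not for RNF2 against RING1 or BMI1 against PCGF2, because each of these genes has 1 entry. CBX2 was called variable in 9 of 11 alternatives, with a range of 1.08 to 1.18 over 3 scalings. Some of these alternatives could not have lost the call. The longest CBX2 entry is the one kept, and the limits on the mean lie far below its level. A lower limit on the difference and a smaller pseudocount only ease the call. Leaving out teratoma 2 keeps teratomas 1 and 3, on which the call rested. The short CBX2 entry alone, with a range of 0.7, was not run as an alternative. The count of variable members was 0 without teratoma 1 or without teratoma 3 and 1 without teratoma 2, and over all genes it was 1989, 2714 and 403 without teratomas 1, 2 and 3. The low count without teratoma 3 shows that most calls rested on that library. With a difference of at least 0.5 the members called were 2, RNF2 and CBX2, beside 7249 genes, or 46.2% of expressed genes. All genes called came to 4873 after rescaling to a sum of 1000000 per library, which enlarges each value and so weakens the pseudocount, and to 1923 with a mean of at least 5 RPKM. Under that rescaling the median member level was 32.5, against 9.29 RPKM as deposited, from the change of unit. Among other Polycomb subunits 2 were variable after that rescaling and 1 under median-of-ratios scaling, against 0 as deposited. The mean over entries gave CBX2 18.2 RPKM, against 30 for the entry kept, and lowered its excess over CBX8 to 0.89 from 1.57 on the log2 scale. The shares of EZH2, RNF2 and BMI1 moved by less than their SD. Rescaling cannot move a share, and leaving out 1 library cannot move its mean by that much. Only the choice of entry could have shown a larger move, and not for the share of RNF2, since RNF2 and RING1 have 1 entry each. No paired analysis was possible because all libraries belong to 1 group, so no library can be paired with one of another group. The paralogue comparisons were themselves made within libraries. The small number of libraries limits each SD and test, and read depth limits the values of CBX7, EED and CDKN2A.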
